A study of Gossypium hirsutum with 2 samples.

Results

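Among the unigenes (assembled transcript sequences) of upland cotton, Gossypium hirsutum, 4 annotated as proline-rich proteins were abundant in growing fiber and close to absent from ovules that make almost no fiber. They are Unigene0127564, annotated as proline-rich protein-1, Unigene0143923, annotated as a proline-rich protein precursor, and Unigene0028857 and Unigene0028858, both annotated as proline-rich protein. They are called fiber PRP unigenes here. They were picked from 136262 unigenes because their ratios between the libraries were among the largest towards fiber, so those ratios are a description and support nothing further. They were compared with the other 7 unigenes that carry exactly the annotation text of Unigene0028857 and Unigene0028858, 9 unigenes in all. The fiber library (WT fiber) came from the wild-type cultivar Xuzhou142. The ovule library (FL ovule) came from XZ142FLM, a line with the genotype li3li3n2n2 whose seeds are fuzzless and lintless. Both were taken at 10 days post anthesis from greenhouse plants. There was 1 library per group, and tissue and genotype differed together, so the effects of tissue and line cannot be told apart and no test of the groups is possible.

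Proline-rich proteins are secreted structural proteins of the plant cell wall. In the secretory pathway, prolyl 4-hydroxylases convert some of their proline residues to hydroxyproline, to which sugars can then be attached. In the wall, peroxidases can link such proteins through tyrosine residues and make them insoluble. Cotton fibers are single cells of the seed coat epidermis that elongate greatly behind a thin, extensible primary wall before they thicken.

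WT fiber had 45.6 M reads and FL ovule 53.4 M. Values below given for fiber and ovule are those of these libraries. RPKM divides a unigene's reads by its length and by the library's read total, which puts different unigenes on 1 scale. It does not correct for reads lost at sequence ends or for reads that are not unique, so small differences between unigenes are uncertain. Unigenes with expansin texts, which name wall-loosening proteins known from fiber, summed to 7364 RPKM in fiber and 940 in ovule. Texts of fiber protein Fb summed to 8235 and 886 RPKM. A unigene is called measured at 1 RPKM or more in either library, and fiber-high or ovule-high at a difference of 2-fold or more towards that library on the log2(RPKM + 1) scale. Of all 63258 measured unigenes, 10.5% were fiber-high and 15.3% ovule-high. With the RPKM of each library scaled to an equal sum, called equal sums below, these shares were 21.0% and 7.25%. Of 210 measured unigenes in the whole fiber marker list, 62 were fiber-high (29.5%) and 59 ovule-high (28.1%). The list summed to 32721 RPKM against 5765, and 15 of its 274 unigenes were at 0 reads in fiber and 4 in ovule. Histones, markers of dividing cells, summed to 1241 RPKM in fiber and 4853 in ovule, with 3 of 95 unigenes at 0 in fiber and 0 in ovule; of 84 measured, 4 were fiber-high and 48 ovule-high. Embryo and endosperm markers summed to 1117 and 1203 RPKM, with 8 and 1 of 82 unigenes at 0, and 13 of 60 measured were fiber-high and 22 ovule-high. A late embryogenesis abundant protein held 24.5% of their sum in fiber, and a text of the lipid-transfer and 2S albumin superfamily 19.5% in ovule. Texts of the storage proteins vicilin and legumin summed to only 14.3 and 23.2 RPKM. Green tissue markers summed to 1222 and 760 RPKM, of which a photosystem II unigene held 50.5% and 27.3%. Of 78 measured green tissue markers, 9 were fiber-high and 16 ovule-high, with a median log2 ratio of -0.29 (17 and 8 of 82, and 0.28, with equal sums). Vascular markers summed to 2178 and 219 RPKM, of which 1 cysteine peptidase held 96.9% and 57.0%; of 22 measured, 2 were fiber-high and 5 ovule-high. The part of cell composition in the differences below was not tested. In such bulk RNA, fewer cells of a type and less RNA per cell cannot be told apart.

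The 4 fiber PRP unigenes together took 119215 reads in WT fiber, 0.261% of the library, and 143 reads in FL ovule. Unigene0127564, of 583 bases, had 47375 reads or 1782 RPKM in fiber and 67 reads or 2.15 RPKM in ovule. It ranked 37th of all unigenes by RPKM in WT fiber. Unigene0143923, a short sequence of 262 bases, had 19348 reads or 1619 RPKM in fiber and 29 reads or 2.07 RPKM in ovule, and ranked 41st in WT fiber. These were the highest levels of the group, and their RPKM values were close to each other in each library.

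Unigene0028857, of 733 bases, had 41357 reads or 1237 RPKM in fiber and 44 reads or 1.12 RPKM in ovule. Unigene0028858, of 520 bases, had 11135 reads or 469 RPKM in fiber and 3 reads or 0.108 RPKM in ovule, the lowest level of the group in both libraries. These sequences have consecutive numbers and the same annotation text. Whether they are parts or copies of 1 gene is not given in the sources used here, and if they are, reads could have been divided between them. On the log2((RPKM + 1)/(RPKM + 1)) scale, which understates the change of low unigenes, the ratios of WT fiber over FL ovule were 9.19 for Unigene0028857, 9.14 for Unigene0127564, 9.04 for Unigene0143923 and 8.73 for Unigene0028858. They ranked 3rd to 6th among all unigenes. By selection all 4 were fiber-high, as were 10.5% of all measured unigenes.

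**Figure D1:**
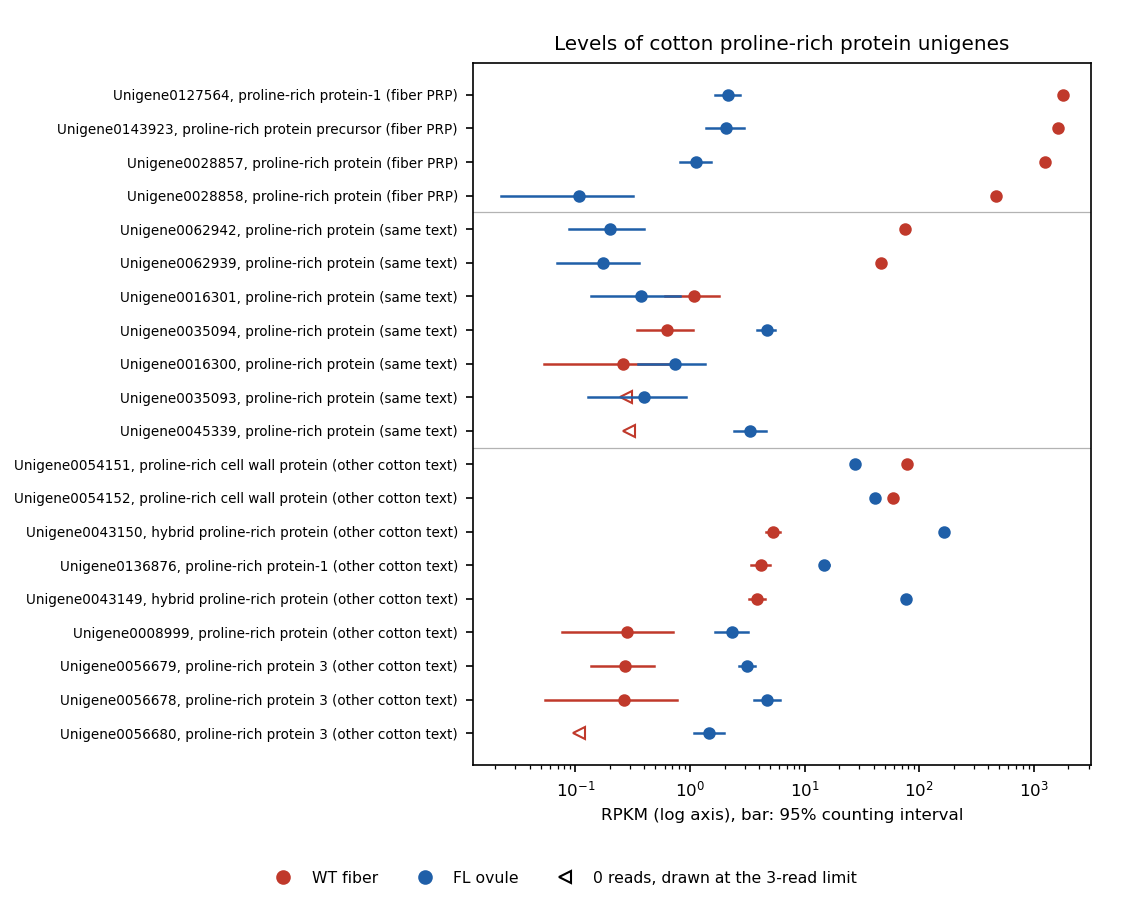
RPKM in WT fiber (red) and FL ovule (blue) on a log axis for the 4 fiber PRP unigenes, the 7 others with the same text and 9 unigenes with other cotton proline-rich texts. Bars are 95% counting intervals and open triangles mark 0 reads, drawn at the limit of 3 reads; the 4 fiber PRP unigenes lie at 469 to 1782 RPKM in fiber and at 0.108 to 2.15 in ovule, and 7 of the other cotton texts lie the other way.

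Within WT fiber the levels of the 4 differed beyond counting error. Unigene0127564 was 1.10-fold above Unigene0143923 (exact 95% counting interval 1.08 to 1.12), which was 1.31-fold above Unigene0028857 (1.29 to 1.33). Unigene0028857 was in turn 2.63-fold above Unigene0028858 (2.58 to 2.69). These intervals reflect read counting alone and hold no spread between plants or preparations, and without molecular identifiers they take copies of 1 molecule as separate ones. They also leave out any effect of sequence length or unique mapping. The order of Unigene0127564 and Unigene0143923, of 583 and 262 bases, is therefore not firm. In FL ovule the order was the same, but Unigene0127564 and Unigene0143923 did not differ beyond counting error (1.04-fold, 0.662 to 1.67). Unigene0028858 was 10.4-fold below Unigene0028857 there (3.34 to 52.4), a wider gap than in WT fiber.

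The ratio of RPKM between the libraries, taken without the pseudocount, was 1100 for Unigene0028857 (819 to 1514), 827 for Unigene0127564 (651 to 1068) and 781 for Unigene0143923 (543 to 1166). These intervals overlapped. The ratio of 4344 for Unigene0028858 rested on 3 reads in FL ovule, and its interval of 1486 to 21066 overlapped that of Unigene0028857 but lay above those of Unigene0127564 and Unigene0143923.

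The few FL ovule reads did not cover the whole of any of the 4 sequences. By the deposited coverage column, which by its name gives the percent of a unigene covered by reads, the FL ovule reads covered 97.3% of Unigene0143923, 81.5% of Unigene0028857, 74.6% of Unigene0127564 and 57.7% of Unigene0028858. By that column 3 reads covered 300 bases of Unigene0028858, but 67 reads only 435 of the 583 bases of Unigene0127564. The reads on Unigene0127564 were thus not evenly spread, and the cause was not tested. In WT fiber the coverage of the 4 was 97.6% to 99.9%. The column exceeds 100 for 9 unigenes of the WT fiber table and 14 of the FL ovule table, so its definition is not exactly a share of bases.

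The other unigenes with exactly the text "proline-rich protein [Gossypium hirsutum]" did not share 1 pattern. Of these 7, 5 reached 1 RPKM in a library, and of these 2 were fiber-high and 2 ovule-high. Unigene0062942 had 2539 reads or 75.2 RPKM in fiber and 8 reads or 0.203 RPKM in ovule, a ratio of 371 (188 to 861). Unigene0062939 had 1594 reads or 46.1 RPKM in fiber and 7 reads or 0.173 RPKM in ovule, a ratio of 266 (129 to 664). With log2 ratios of 5.99 and 5.33 they were the nearest to the fiber PRP unigenes among all proline-rich texts, but their fiber levels were well below the 469 RPKM of Unigene0028858.

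The reverse pattern was seen at low levels. Unigene0035094 had 14 reads or 0.630 RPKM in fiber and 121 reads or 4.65 RPKM in ovule, 7.39-fold higher there (4.24 to 13.9). Unigene0045339 had 0 reads in fiber and 40 reads or 3.36 RPKM in ovule. With 3 reads put in place of the 0, it was 11.4-fold higher in FL ovule, without allowance for counting error. Unigene0016301 had 15 reads in fiber and 6 in ovule and stayed within 2-fold on the pseudocount scale, while Unigene0016300, with 3 and 10 reads, and Unigene0035093, with 0 and 5 reads, did not reach 1 RPKM. The ovule-high calls were the less firm ones: 0 were left with a pseudocount of 5 or when 5 RPKM was required, and 1 was left at 4-fold. Both fiber-high calls held in each of these. At 4-fold, 2.80% of all measured unigenes were past the threshold towards WT fiber and 2.19% towards FL ovule.

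**Figure D2:**
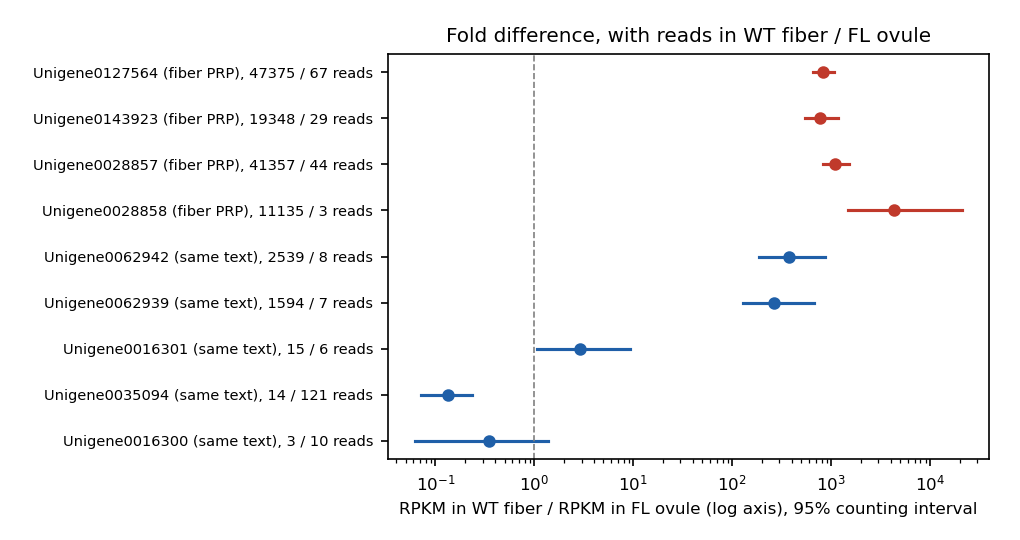
Ratio of RPKM in WT fiber to RPKM in FL ovule on a log axis, with exact 95% counting intervals, for the 4 fiber PRP unigenes (red) and the 5 same-text unigenes with reads in both libraries (blue). The read counts stand beside the names; the red points lie at 781 to 4344, and the blue points run from 0.135 to 371.

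The fiber PRP unigenes with that exact text, Unigene0028857 and Unigene0028858, held 93.3% of the 1830 RPKM that all 9 such unigenes summed to in WT fiber. In FL ovule they held 11.1% of 11.1 RPKM. Without them the text summed to 123 RPKM in fiber and 9.90 RPKM in ovule. Unigene0062939 and Unigene0062942 stand in a run of 7 consecutively numbered unigenes, Unigene0062937 to Unigene0062943, whose other 5 carry the text of a Medicago truncatula proline-rich protein. Of those 5, Unigene0062937 had 3.95 RPKM in fiber and 14.96 in ovule and was ovule-high. The remaining 4 stayed within 2-fold on the pseudocount scale, such as Unigene0062943 with 8.98 RPKM in fiber and 12.2 in ovule. Among them Unigene0062941, at 0.436 and 0.993 RPKM, did not reach 1 RPKM. Without the pseudocount it was 2.28-fold higher in FL ovule (1.41 to 3.81).

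Other proline-rich texts from cotton mostly pointed towards FL ovule. They were gathered after their values had been seen, and they leave out the fiber PRP and same-text unigenes. Their lean towards FL ovule therefore depends in part on that choice. Of 9 such unigenes, all measured, 7 were ovule-high and 1 was fiber-high (7 and 2 with equal sums), beside 15.3% and 10.5% of all measured unigenes. Hybrid proline-rich proteins join a proline-rich stretch to a cysteine-rich domain. Unigene0043150, a hybrid proline-rich protein, had 5.28 RPKM in fiber and 163 in ovule, 30.8-fold higher there (26.8 to 35.6). Unigene0043149, with the same text, had 3.85 and 76.9 RPKM, 20.0-fold higher in FL ovule (16.9 to 23.8). All 3 unigenes annotated as proline-rich protein 3 were on the FL ovule side, at up to 4.74 RPKM there and at most 0.272 RPKM in WT fiber.

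The text of Unigene0127564 itself occurred on both sides. Unigene0136876, the only other unigene annotated as proline-rich protein-1, had 121 reads or 4.13 RPKM in fiber and 509 reads or 14.9 RPKM in ovule, 3.59-fold higher there (2.94 to 4.42). The cell wall texts from Gossypium barbadense were high in both libraries. Unigene0054151 had 78.9 RPKM in fiber and 27.7 in ovule, 2.85-fold higher in WT fiber (2.69 to 3.02). Unigene0054152 had 59.3 and 41.5 RPKM, a ratio of 1.43 (1.35 to 1.51), within 2-fold.

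All proline-rich texts, from any species and without kinases, gave 78 unigenes, of which 57 were measured. The 4 fiber PRP unigenes held 88.9% of the 5743 RPKM of this list in fiber and 0.906% of its 602 RPKM in ovule. Without them, 8 of 53 were fiber-high (15.1%) and 14 ovule-high (26.4%), beside 10.5% and 15.3% of all measured unigenes. The median log2 ratio of the 53 was -0.35, beside -0.39 for all measured unigenes and -0.22 for those with annotation. With equal sums, 9 of 52 were fiber-high and 14 ovule-high, with a median of 0.17 beside 0.23 for all measured unigenes. Some fiber-high unigenes of this list were singled out after their values were seen. Unigene0045292, proline-rich protein 2, had 142 RPKM in fiber and 23.8 in ovule. The DC2.15-like Unigene0047284 and Unigene0047283 had 16.0 and 10.3 RPKM in fiber and 0.108 and 0.466 in ovule. A further DC2.15-like unigene, Unigene0116398, went the other way, at 0 and 3.20 RPKM. The list also takes in texts that do not name wall proteins, such as BAT3, a chaperone partner, and spliceosome-associated proteins. Without those texts the whole list, now with the 4 fiber PRP unigenes counted in, had 12 fiber-high and 14 ovule-high unigenes of 44.

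The families that act with or resemble proline-rich proteins were each taken by a text pattern. Their counts and medians are also given with equal sums. Of all measured unigenes, 10.5% were fiber-high and 15.3% ovule-high, with a median log2 ratio of -0.39. With equal sums these values were 21.0%, 7.25% and 0.23. Extensins are hydroxyproline-rich wall proteins that form cross-linked networks. Of 37 measured extensin texts, 5 were fiber-high (13.5%) and 14 ovule-high (37.8%), and with equal sums 12 and 6 of 36. Their median log2 ratio was -0.64, and -0.10 with equal sums. Unigene0036820, an extensin-3-like protein, had 0.662 RPKM in fiber and 17.0 in ovule, 25.6-fold higher there (15.1 to 47.3). Unigene0018142, an extensin, was 22.7-fold higher in FL ovule (10.8 to 57.3). Without texts of pollen Ole e 1 proteins, which share the pattern, 4 and 8 of 27 were so.

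Hydroxyproline-rich glycoprotein texts, a broad class, had 15 fiber-high (17.2%) and 17 ovule-high (19.5%) members among 87 measured. With equal sums there were 22 and 7 of 77. Their median log2 ratio was -0.34, and 0.36 with equal sums. Unigene0063254 had 50.8 RPKM in fiber and 0.529 in ovule, a ratio of 96.1 (67.2 to 143). Unigene0054957, a late embryogenesis abundant glycoprotein, had 15.2 and 0.133 RPKM, a ratio of 114 (57.7 to 266). Glycine-rich texts, which include wall structural proteins, had 8 fiber-high (13.6%) and 7 ovule-high (11.9%) of 59, near the shares of all measured unigenes. With equal sums there were 13 and 3 of 57. The median log2 ratio of the glycine-rich texts was -0.13, and 0.40 with equal sums. Unigene0028589, a glycine-rich protein, had 939 reads or 30.2 RPKM in fiber and 0 reads in ovule. With 3 reads put in place of the 0, it was 366-fold higher in WT fiber, without allowance for counting error. Unigene0022850, glycine-rich protein 23, was 16.5-fold higher in WT fiber (8.96 to 33.7). The most abundant glycine-rich text, singled out after its values were seen, was Unigene0017314, with 2260 RPKM in fiber and 501 in ovule. It held 81.0% of the summed RPKM of this list in fiber and 53.5% in ovule. Without it the list summed to 530 and 436 RPKM.

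Enzymes that modify or supply such proteins were taken next. Of 5 prolyl 4-hydroxylase texts, 1 was measured: Unigene0042106 had 6.18 RPKM in fiber and 0.730 in ovule, a ratio of 8.47 (5.08 to 15). Of 12 measured unigenes for pyrroline-5-carboxylate synthase and reductase, which make proline, 0 were fiber-high and 1 was ovule-high. With equal sums this turned to 1 fiber-high and 0 ovule-high of 10, and the median log2 ratio moved from -0.43 to 0.0084. The ovule-high one was Unigene0042969, a reductase with 1.85 RPKM in fiber and 5.32 in ovule, 2.88-fold higher there (1.99 to 4.25). Unigene0079294, another reductase, had 5.83 and 3.29 RPKM. The most abundant, singled out after its values were seen, was the synthase Unigene0076892, with 16.8 RPKM in fiber and 25.3 in ovule. The patterns for hydroxyproline glycosyltransferases and prolyl-tRNA synthetases matched no text.

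Of 62 measured peroxidase texts, 9 were fiber-high (14.5%) and 28 ovule-high (45.2%), beside 10.5% and 15.3% of all measured unigenes. With equal sums there were 15 and 19 of 59, beside 21.0% and 7.25%. The median log2 ratio of the peroxidase texts was -0.84, and -0.34 with equal sums. Unigene0122711, a Gossypium hirsutum peroxidase, went the other way, with 360 RPKM in fiber and 9.84 in ovule, a ratio of 36.6 (33.9 to 39.5). Unigene0059289, of the peroxidase superfamily, was 85.3-fold higher in FL ovule (46.2 to 178). The list summed to 1160 RPKM in fiber and 3521 in ovule, but 81.3% of the latter came from Unigene0054407, a peroxidase singled out after its values were seen, at 234 RPKM in fiber and 2864 in ovule. Without it the order of the sums turned, to 926 RPKM in fiber and 657 in ovule. The peroxidase pattern also took in haloperoxidase-related and overexpressor texts; without them 9 of 57 were fiber-high and 28 ovule-high.

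**Figure D3:**
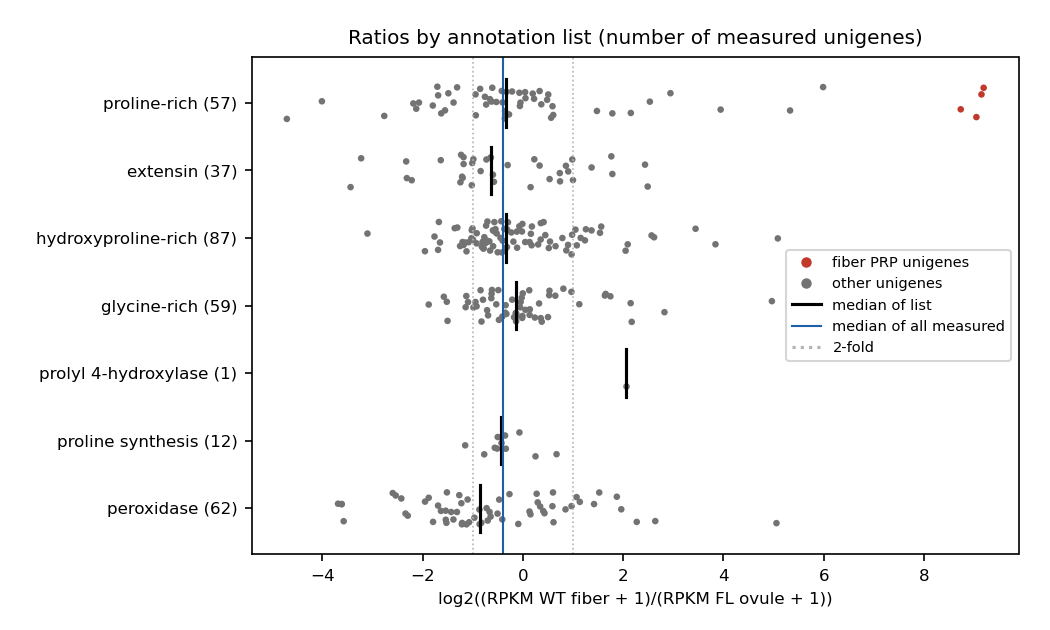
Log2((RPKM + 1)/(RPKM + 1)) of WT fiber over FL ovule for the measured unigenes of each annotation list (points, with vertical jitter), the 4 fiber PRP unigenes in red. Black bars are list medians, the blue line is the median of all measured unigenes at -0.39 and dotted lines mark 2-fold; the red points at 8.73 to 9.19 stand beyond the next proline-rich unigene at 5.99.

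The unigenes most like the 4 in level were found by distance in log2(RPKM + 1) over the 2 libraries among 41574 measured unigenes with annotation, taking the 5 nearest to each. Unigene0127564 and Unigene0143923 were each other's nearest, at a distance of 0.14. Besides the fiber PRP unigenes themselves, 9 unigenes were named. Nearest to Unigene0028857 was Unigene0046573, a WD40 repeat protein, at 1148 RPKM in fiber and 1.80 in ovule. An auxin binding protein (Unigene0125523) and that WD40 protein were named for 3 of the 4. An arabinogalactan protein (Unigene0043142), a glycoprotein of the cell surface, was named for Unigene0127564 and Unigene0143923, with 2959 RPKM in fiber and 4.0 in ovule. Unigene0030424, 3-ketoacyl-CoA synthase 12, an enzyme of fatty acid elongation, was named for Unigene0028857.

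Unigene0028858 had neighbours of its own, at distances of 0.58 to 0.87. These were an uncharacterized protein (Unigene0044659), fasciclin-like arabinogalactan protein 6 (Unigene0054972), an RPM1-interacting protein 4-like protein (Unigene0056769), another WD40 repeat protein (Unigene0034641) and the water channel aquaporin TIP1;7 (Unigene0056128). Fasciclin-like arabinogalactan protein 6 had 467 RPKM in fiber and 0.817 in ovule, and TIP1;7 had 484 and 1.02 RPKM. Likeness over 2 libraries is a match of levels and says nothing of shared function. Of 148 annotated unigenes at 469 RPKM or more in WT fiber, 94 had 100 RPKM or more in FL ovule. Of the 148, 9, the 4 fiber PRP unigenes included, had at most the 2.15 RPKM of Unigene0127564. The limits of 469 and 2.15 RPKM are those of the fiber PRP unigenes themselves, which were chosen for such ratios. These counts are therefore a description and support nothing further.

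**Figure D4:**
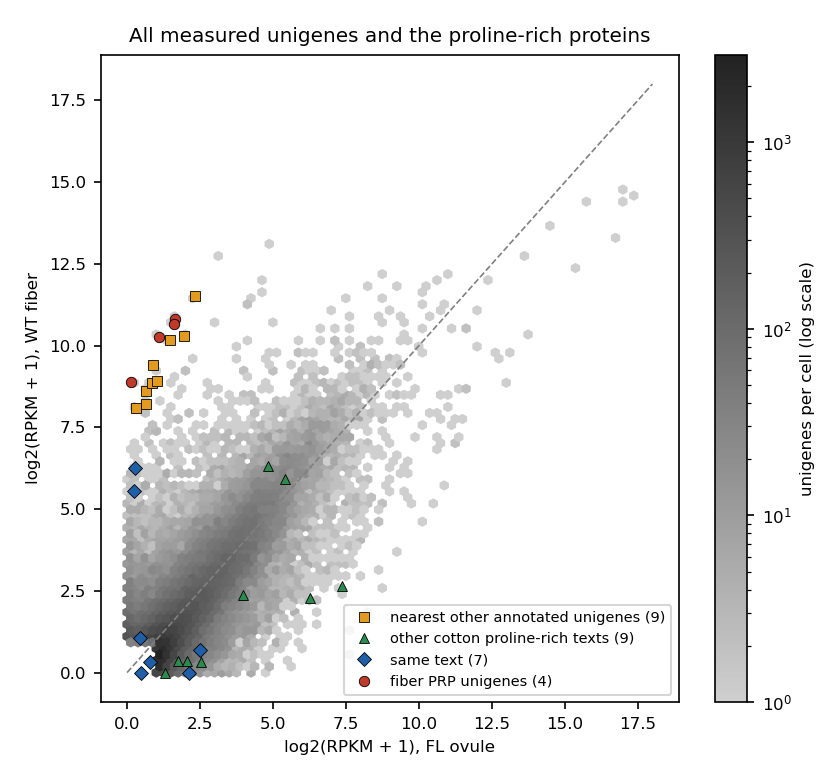
Log2(RPKM + 1) in WT fiber against FL ovule for all measured unigenes (grey cells, darker for more unigenes), with the 4 fiber PRP unigenes (red circles), 7 same-text unigenes (blue diamonds), 9 other cotton proline-rich texts (green triangles) and the 9 nearest annotated unigenes (orange squares). The dashed line marks equal levels; the red circles lie at the upper left, with 469 RPKM or more in fiber and at most 2.15 in ovule, apart from the same-text unigenes.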

How the data were processed

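Per the labels' protocols, 1 part of the DNase-treated RNA was enriched with oligo-dT and another depleted of ribosomal RNA; which of them gave the deposited values is not stated. The submitters' processing notes list Bowtie and Bowtie2 with no version or role. The assembler, the source of annotation and the use of strand are not given in the sources. Per the file headers, the deposited counts are unique reads; they are whole and add up to the total in each header. The authors made the deposited RPKM values from counts, lengths and those totals; recomputing them gave a largest relative difference of 5.1e-15. Unigenes listed for only 1 library got 0 reads in the other. Measured means 1 RPKM or more in at least 1 library. Ratios are log2 with a pseudocount of 1. Fold intervals are exact (Clopper-Pearson) 95% intervals, and those of levels in the plots exact Poisson ones. With 1 library per group, no test was run.

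The 4 unigenes and all lists, which are patterns on annotation text, were chosen with earlier results of these data known. Named were the 4, same-text unigenes, the 2 largest absolute ratios per list at 5 RPKM or more, and the 5 nearest to each of the 4. Alternatives changed pseudocount, filter, fold threshold and scaling. Ratio and interval were tested on simulated data with counting error alone and folds far below those of the 4. That test therefore says nothing of the ratios reported for the 4. Python 3.11.15, pandas 2.3.3 and scipy 1.17.1 were used.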

Additional observations from a re-analysis of the deposited data

How the results depend on the processing

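No paired analysis was possible because each group has 1 library; for the same reason no replicate could be left out. Towards WT fiber, the 4 fiber PRP unigenes kept their direction under all 6 pseudocounts and scalings tried. This was fixed in advance by their selection for large ratios and supports nothing further. With a pseudocount of 0.1 the log2 ratios moved to 9.98 (Unigene0028857), 11.14 (Unigene0028858) and 9.63 (Unigene0127564); with 5 they were 7.66, 6.54, 7.96 and, for Unigene0143923, 7.84. A common RPKM sum gave 9.62 for Unigene0127564. Of same-text unigenes higher in FL ovule (2), 0 were left with a pseudocount of 5 and at 5 RPKM, and 1 at 4-fold. Over all related lists without the 4, 45 of 310 measured unigenes were fiber-high and 81 ovule-high (10.5% and 15.3% of all measured unigenes). The order of these counts turned with the common RPKM sum, to 72 and 49 of 291 (21.0% and 7.25% of all), and at 4-fold, to 23 and 21 of 310 (2.80% and 2.19% of all). A pseudocount of 5 gave 27 and 29 of 310 (4.57% and 2.90% of all). At 5 RPKM, 33 of 152 were fiber-high and 41 ovule-high, beside 22.0% and 18.1% of all unigenes measured so. Read totals without the 30 most-read unigenes of each library gave 42 and 126 of 352, beside 6.34% and 28.4% of all. List medians changed sign with the common RPKM sum for proline-rich (0.25), hydroxyproline-rich (0.36), glycine-rich (0.40) and proline synthesis texts (0.0084), and at 5 RPKM for proline-rich (0.053) and hydroxyproline-rich texts (0.52). The median of all measured unigenes also moved, from -0.39 to 0.23 with that sum and to -0.69 without the most-read unigenes. The share of the 9 same-text unigenes held by Unigene0028857 and Unigene0028858 was, by reads, 92.6% of WT fiber and 19.3% of FL ovule; the 4 held 88.9% and 0.906% of all proline-rich RPKM. The cause of each shift was not tested. Read depth limits the ratio of Unigene0028858, with 3 reads in FL ovule.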
